A study of Mus musculus with 12 samples.

Results

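The primary granule genes of myeloid progenitors were followed through RNA sequencing of haematopoietic stem and progenitor cells of the mouse, from which all blood cells form. The set was Mpo, Elane, Prtn3, Ctsg, Srgn, Ms4a3, Nkg7, Plac8, Cebpa and Cebpe, 10 genes of the 38924 entries of the deposited table, found by gene symbol. They had been chosen with the values of these same libraries known, from the contrast of brain-recovered against naive cells, so their differences in that contrast are given as a description with no test. The 6 brain-recovered libraries (replicates 4, 5, 6, 10, 11 and 12) came from cells injected into a vein of mice 24 h after cerebral ischaemia and reperfusion, an experimental stroke in which blood flow is stopped and restored, and recovered from their brains 24 h later. The 6 naive libraries (replicates 1, 2, 3, 7, 8 and 9) came from cells that were not injected. All cells came from the femurs and tibias of male mice, 4 to 5 weeks old, of the C57BL/6 strain, and marrow cells carrying CD45R, CD11b, CD3e, Ly-6G or TER119 had been removed with magnetic beads. How the injected cells were told from the cells of the host brain, and whether the replicates were separate animals, are not stated by the sources at hand. Tests therefore measure only the spread between these libraries, which may be technical.

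Primary, or azurophil, granules are made at the promyelocyte stage of neutrophil development, and the same gene programme marks granulocyte-monocyte progenitors in the bone marrow. Their cargo is an oxidant-producing peroxidase and a set of serine proteases, which are packed as active enzymes onto a proteoglycan core. The transcription factor C/EBP alpha opens the programme in progenitors, and C/EBP epsilon acts later, in the passage from primary to secondary granules. In stem and progenitor cells freshly taken from marrow, these transcripts mark the myeloid part of the population.

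The symbols in the table are displaced against the values in some stretches, so the length behind each row was recovered from its values and set against the exons of the labelled gene in GENCODE M21 (genome build GRCm38). For Mpo (3424 bases), Srgn (2196 bases), Prtn3 (1732 bases) and Plac8 (1592 bases) the implied length equalled the annotated one. It was 2634 bases for Cebpa against 2636 annotated, 1238 for Cebpe against 1241, 1002 for Ctsg against 1033 and 920 for Elane against 984. The row of Ms4a3 implied 1012 bases against 1884 for all exons of the gene together, and its label was kept because the row was not longer than the gene and its run of mismatched rows was short. Rows off their annotated length by more than 1% stood in runs of 9 for Ctsg, 4 for Ms4a3 and 2 for Elane, under the limit of 15 at which a label was set aside, so these 3 labels are less sure than the other 6. The row labelled Nkg7, a gene for a granule membrane protein of natural killer and T cells, implied 1789 bases against 914 and lay in a run of 64 consecutive rows whose lengths did not match their labels. It was taken to hold another gene and left out. The other 9 genes all passed the filter on low values (at least 1 in at least 6 libraries), so none was lost there.

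Values are in RPKM, reads per kilobase of the gene and per a constant of each library as deposited by the authors, and the reads behind each value were recovered from the same steps. The brain-recovered libraries held 1129528 to 13437450 such reads and the naive libraries 654551 to 2629600. Entries above 0 numbered 4380 in brain-recovered replicate 12 and 12066 to 22727 in the other brain-recovered libraries, and 5067 to 7164 in naive replicates 1, 2 and 3 and 16269 to 23184 in naive replicates 7, 8 and 9. A value of 0 is given only as listed. Of the defining markers of stem and progenitor cells, Kit and Cd34 were low in both groups. Ly6a (Sca-1) was high in 1 library, at 35095 RPKM in brain-recovered replicate 6. The rows of Kit, Cd34 and Ly6a implied lengths more than 10% under the annotated ones, so these labels are less sure. Kit was at 3.30 to 13.9 RPKM in 5 brain-recovered libraries and listed at 0 in replicate 12, against 0 to 11.03 in naive libraries, and Cd34 was above 0 in brain-recovered replicates 5 and 11 and in naive replicates 3, 7 and 9.

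The 4 enzymes of the granule are introduced with the 250 bases before the RefSeq start of each gene, which differs from the GENCODE start for Mpo, Elane and Prtn3, because they are the members of the set with a shared cargo role. The sequences are from RefSeq (GRCm38.p6), on the strand of the gene. Capitals mark GAGGAA on either strand, the core recognised by the myeloid factor PU.1. The C/EBP motif TTNNGNAA was also searched and is in none of the 4.
Mpo, chr11:87793534-87793783, plus strand: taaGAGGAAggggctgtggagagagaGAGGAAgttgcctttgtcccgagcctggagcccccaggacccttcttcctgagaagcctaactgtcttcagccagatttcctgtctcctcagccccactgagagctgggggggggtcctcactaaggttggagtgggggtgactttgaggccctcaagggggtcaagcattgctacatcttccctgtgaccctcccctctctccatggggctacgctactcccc
Elane, chr10:79886062-79886311, plus strand: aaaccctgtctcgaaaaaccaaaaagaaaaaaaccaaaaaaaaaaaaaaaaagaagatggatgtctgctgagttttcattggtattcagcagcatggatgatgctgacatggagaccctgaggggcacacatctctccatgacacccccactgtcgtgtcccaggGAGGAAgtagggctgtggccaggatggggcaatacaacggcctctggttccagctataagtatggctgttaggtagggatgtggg
Prtn3, chr10:79879417-79879666, plus strand: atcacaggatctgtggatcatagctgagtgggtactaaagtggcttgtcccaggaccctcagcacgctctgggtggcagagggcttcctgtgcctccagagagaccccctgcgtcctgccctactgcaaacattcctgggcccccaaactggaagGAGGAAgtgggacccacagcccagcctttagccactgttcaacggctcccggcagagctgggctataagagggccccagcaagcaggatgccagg
Ctsg, chr14:56102575-56102824, minus strand: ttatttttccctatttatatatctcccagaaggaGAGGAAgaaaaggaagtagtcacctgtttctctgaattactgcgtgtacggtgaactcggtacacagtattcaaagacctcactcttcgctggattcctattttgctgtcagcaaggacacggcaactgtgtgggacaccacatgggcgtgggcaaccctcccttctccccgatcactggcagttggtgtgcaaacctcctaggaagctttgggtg
GAGGAA was found in each of these 4 windows, and in 23.3% of 32851 RefSeq windows of the same length. For 8 of the 9 genes the table held 10 windows, 2 each for Srgn and Plac8, and GAGGAA was in 5 of the 10. TTNNGNAA was in 4 of the 10, those of Ms4a3, both of Plac8 and 1 of Srgn, beside 36.8% of all windows. The RUNX motif TGTGGT (14.0% of all windows) and the TATA box TATAAA (12.4%) were each in 3 of the 10. A match is a description of these letters and not a binding site.

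Elane encodes neutrophil elastase, a serine protease of the granule (ENSMUSG00000020125, chromosome 10, 79886247 to 79888215, plus strand). Its values in brain-recovered libraries ran from 0 through a median of 430.3 to 65623 RPKM, and in naive libraries from 0 through 2.13 to 7.89 RPKM. Replicates 5, 6 and 10 stood at 848, 17187 and 65623 RPKM, from 867, 7896 and 52494 reads, while replicates 4 and 11 stood at 4.48 and 12.4 RPKM and replicate 12 was listed at 0. The groups overlapped, with 4 of 6 brain-recovered libraries above the highest naive one. The difference of mean log2(RPKM + 1), brain-recovered minus naive, was 5.98, beside SDs of 6.57 in brain-recovered and 1.06 in naive libraries (n = 6 each). In replicate 10 Elane was the entry with rank 17 from the top of the library, and in replicate 6 it had rank 60. All differences below are on this log2 scale, on which changes of low genes look smaller than they are.

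Mpo encodes myeloperoxidase, which makes hypochlorous acid (ENSMUSG00000009350, chromosome 11, 87793581 to 87804413, plus strand). It ran from 0.231 through a median of 740.3 to 7677 RPKM in brain-recovered libraries and from 0.288 through 3.58 to 15.6 RPKM in naive libraries. Replicates 5, 6, 10 and 11 had 163, 7677, 4808 and 1318 RPKM, replicate 4 had 14.0 and replicate 12 had 0.231. The first 4 lay above every naive library, replicate 4 within the naive range and replicate 12 below it. The difference was 5.86, with SDs of 4.98 in brain-recovered and 1.47 in naive libraries. Replicate 11, where Elane was low, held Mpo at rank 77 from the top, from 4349 reads.

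Prtn3 encodes proteinase 3, a serine protease whose gene lies just before Elane (ENSMUSG00000057729, chromosome 10, 79874476 to 79883174, plus strand). Replicate 10 alone carried 99.03% of its summed RPKM over the brain-recovered group, at 23739.6 RPKM from 35751 reads. The other brain-recovered libraries had 0.457 to 172 RPKM, against 0 to 10.0 in naive libraries. The medians were 22.3 RPKM in brain-recovered and 2.25 in naive libraries, and the difference of means was 4.35 (SDs of 4.78 in brain-recovered and 1.36 in naive libraries). In the brain-recovered group 5 libraries exceeded the highest naive one, among them replicates 5, 6 and 11 at 14.5, 30.1 and 14.4 RPKM. Prtn3 overlaps the start of Plppr3 on the opposite strand, and without stranded counting reads of the shared stretch cannot be assigned to one of them. Plppr3 itself was at 0 to 10.7 RPKM in brain-recovered and 0 to 8.33 in naive libraries. On the other side of Elane, Cfd, the gene of complement factor D, was at 0 to 17.9 RPKM in brain-recovered and 0 to 5.81 in naive libraries, and was listed at 0 in replicates 6 and 10, where Elane was highest.

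Ctsg encodes cathepsin G, a serine protease of the same granules (ENSMUSG00000040314, chromosome 14). Its highest value was far under those of the other 3 enzymes, with 0.898 through a median of 24.9 to 122 RPKM in brain-recovered libraries, against 0 to 4.61 in naive libraries, 4 of which were listed at 0. That value came from brain-recovered replicate 12, the library where Elane and Srgn were listed at 0, with 154 reads, followed by replicate 10 with 118 RPKM. The difference was 3.62 (SDs of 2.50 in brain-recovered and 1.14 in naive libraries). Within a library the enzymes kept no fixed proportion per length. The ratio of Elane to Mpo was 5.20, 2.24 and 13.6 in replicates 5, 6 and 10 and 0.00941 in replicate 11, and that of Prtn3 to Elane was 0.0172, 0.00175 and 0.362 in replicates 5, 6 and 10.

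**Figure D1:**
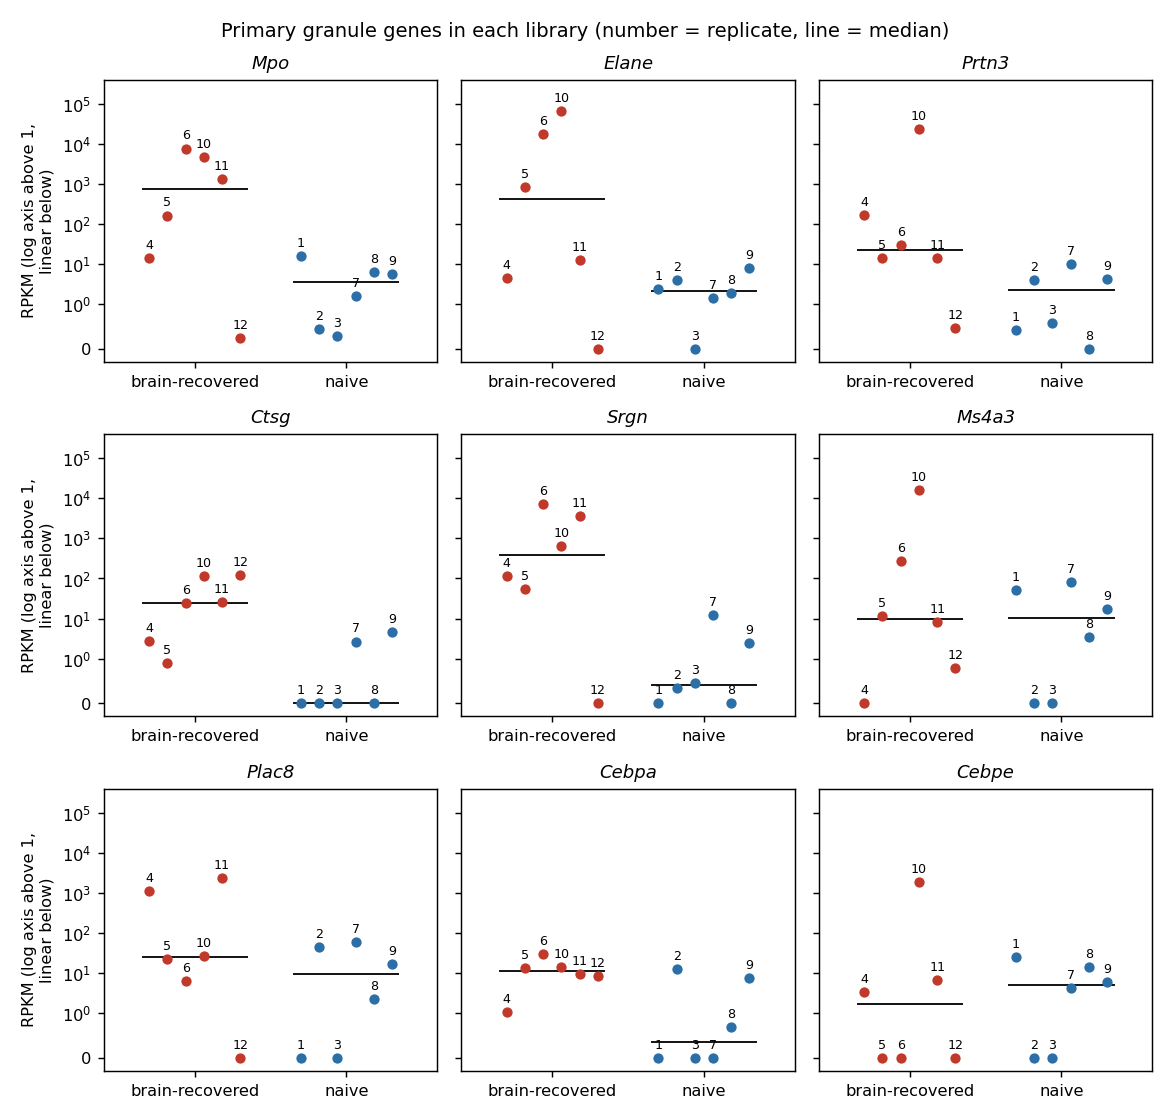
RPKM of the 9 primary granule genes in each brain-recovered (left) and naive (right) library, on an axis that is logarithmic above 1 and linear below. Each point is a library with its replicate number and each line the group median; Mpo, Elane and Srgn have brain-recovered medians of 740.3, 430.3 and 389 RPKM, while replicate 10 stands far above the rest in Prtn3, Ms4a3 and Cebpe.

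Srgn encodes serglycin, the proteoglycan core to which the granule proteases bind, also made in other blood cells (ENSMUSG00000020077, chromosome 10). With all 12 libraries it had the largest difference of the 9 genes, 6.71 (SDs of 4.69 in brain-recovered and 1.45 in naive libraries). Values ran from 0 through a median of 389 to 7281 RPKM in brain-recovered libraries and from 0 through 0.396 to 12.2 RPKM in naive libraries. Replicates 4, 5, 6, 10 and 11 all lay above the highest naive library, at 116, 53.3, 7281, 663 and 3682 RPKM, and replicate 12 was listed at 0. With Prtn3 it had the most libraries above the naive range, and it was the only one of the 9 whose 5 libraries of the brain-recovered group other than replicate 12 all stood above 50 RPKM.

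Ms4a3 and Plac8 encode a membrane protein with 4 spanning segments and a small cysteine-rich protein, both known from granulocyte-monocyte progenitors. Ms4a3 (ENSMUSG00000024681, chromosome 19) stood at 15929 RPKM in brain-recovered replicate 10, 267 in replicate 6 and 0 to 11.6 in the other 4. Naive libraries had 0 to 81.9 RPKM, and the medians were 9.88 RPKM in brain-recovered and 10.2 in naive libraries. Its difference of 1.88 fell to 0.075 without replicate 10, and was -0.0039 after quantile normalization. Plac8 (ENSMUSG00000029322, chromosome 5) had another pattern, with 1132 and 2409.8 RPKM in brain-recovered replicates 4 and 11, 0 to 26.7 in the other brain-recovered libraries and 0 to 58.8 in naive libraries. Its difference was 2.72, and 1.59 without replicate 11.

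Of the transcription factor genes, Cebpa was low in every library and Cebpe high in 1. Cebpa, the gene of C/EBP alpha (ENSMUSG00000034957, chromosome 7), was at 1.04 through a median of 11.2 to 29.7 RPKM in brain-recovered libraries, against 0 through 0.339 to 12.6 RPKM in naive libraries, 3 of which were listed at 0. It was the only one of the 9 without a brain-recovered library above 100 RPKM, and its difference was 2.12 (SDs of 1.30 in brain-recovered and 1.71 in naive libraries). Cebpe, the gene of C/EBP epsilon (ENSMUSG00000052435, chromosome 14), was at 1821 RPKM in brain-recovered replicate 10, from 1960 reads, and at 0 to 6.70 in the other 5. Naive libraries had 0 to 25.4 RPKM, and the median was lower in the brain-recovered group, 1.66 RPKM against 5.09 in naive libraries. The difference of 0.34 turned to -1.30 without replicate 10, to -0.12 without naive replicate 2 or naive replicate 3, to -0.73 after scaling to library read totals, to -0.25 after quantile normalization and to -0.20 with a pseudocount of 0.1.

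**Figure D2:**
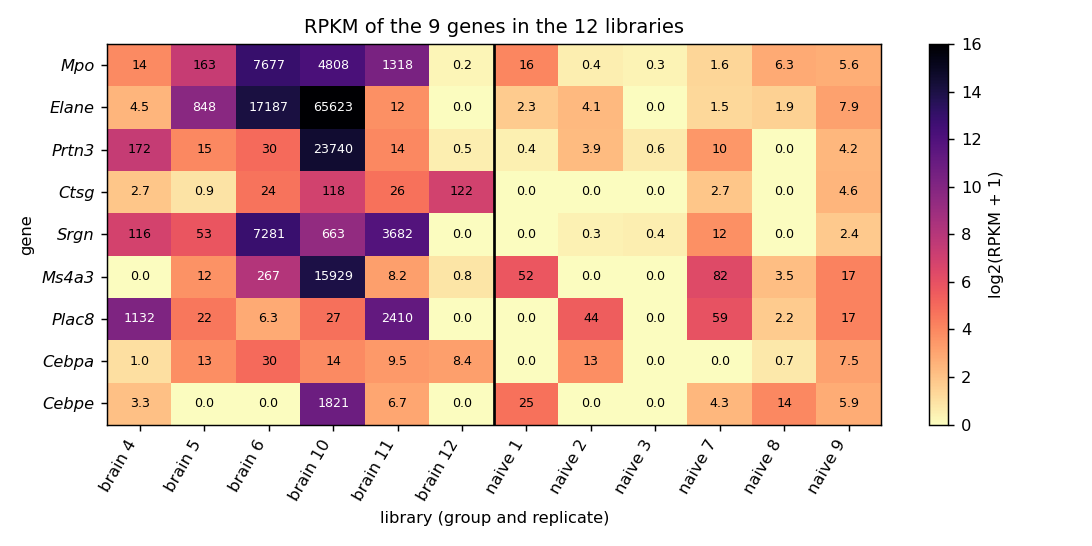
RPKM of the 9 genes (rows) in the 6 brain-recovered libraries (left of the line) and the 6 naive libraries (right), coloured by log2(RPKM + 1). The column of brain-recovered replicate 10 is dark in Elane (65623), Prtn3 (23739.6) and Ms4a3 (15929), replicate 6 in Elane (17187), Mpo (7677) and Srgn (7281), and replicate 12 holds only Ctsg (122) above 10.

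Read by library, the set was carried unequally by the brain-recovered cells. Of the 9 genes, 8 lay above the highest naive library for replicate 10, 7 for replicate 6 and 6 for replicate 11. The number was 5 for replicate 5, 3 for replicate 4 and 1 for replicate 12. Over all 17689 entries tested, the share above the highest naive library was 19.1% in replicate 10, 21.8% in replicate 6, 19.9% in replicate 11, 19.6% in replicate 5, 19.8% in replicate 4 and 8.11% in replicate 12. The contrast chose the members, so nothing is read from the excess. The 9 genes took 0.893% of all reads in replicate 10, 0.496% in replicate 11, 0.327% in replicate 6 and 0.0164 to 0.0424% in replicates 4, 5 and 12, against 0.000458 to 0.0186% in naive libraries. In bulk samples, fewer cells of a type and less RNA per cell cannot be told apart.

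**Figure D3:**
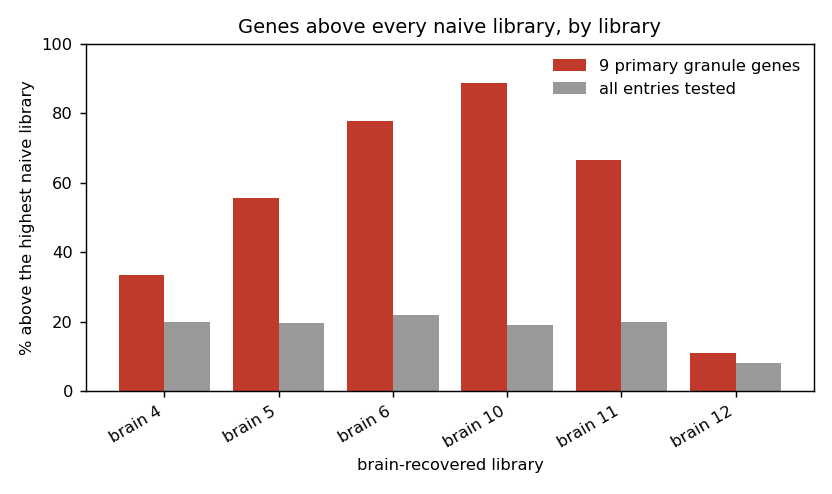
Share of genes above the highest of the 6 naive libraries in each brain-recovered library, for the 9 primary granule genes (red) and for all entries tested (grey). The number of the 9 genes is 8 in replicate 10 and 1 in replicate 12, while the grey bars lie between 8.11% and 21.8%.

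Single libraries moved the differences by different amounts. Leaving out replicate 10 brought Elane to 4.32, Prtn3 to 2.62, Ms4a3 to 0.075 and Cebpe to -1.30, and left Mpo at 4.99, Srgn at 6.39, Ctsg at 3.10, Plac8 at 2.88 and Cebpa at 2.01. Leaving out replicate 12 raised Elane to 7.52, Mpo to 7.37 and Srgn to 8.26. The median over the 9 genes was 3.62, the value of Ctsg, beside 0.64 over all entries tested, and ran from 2.88 to 4.30 when 1 library was left out. Over the 4 genes of exact length alone it was 5.11. Without the 4 libraries poorest in entries (under 10000 above 0: brain-recovered replicate 12 and naive replicates 1, 2 and 3) it was 2.79, beside -0.06 over all entries. In libraries numbered 1 to 6 the differences of Mpo, Elane and Srgn were 6.41, 7.39 and 8.17, and in libraries numbered 7 to 12 they were 5.32, 4.58 and 5.24. Cebpe was at -0.87 in libraries 1 to 6 and 1.55 in libraries 7 to 12. Scaling to library read totals brought Srgn to 5.37, Elane to 4.27, Mpo to 4.19, Ctsg to 3.20 and Prtn3 to 2.79. It brought Plac8 to 1.35, Cebpa to 1.23, Ms4a3 to 0.79 and Cebpe to -0.73, beside a median of -0.32 over all entries.

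**Figure D4:**
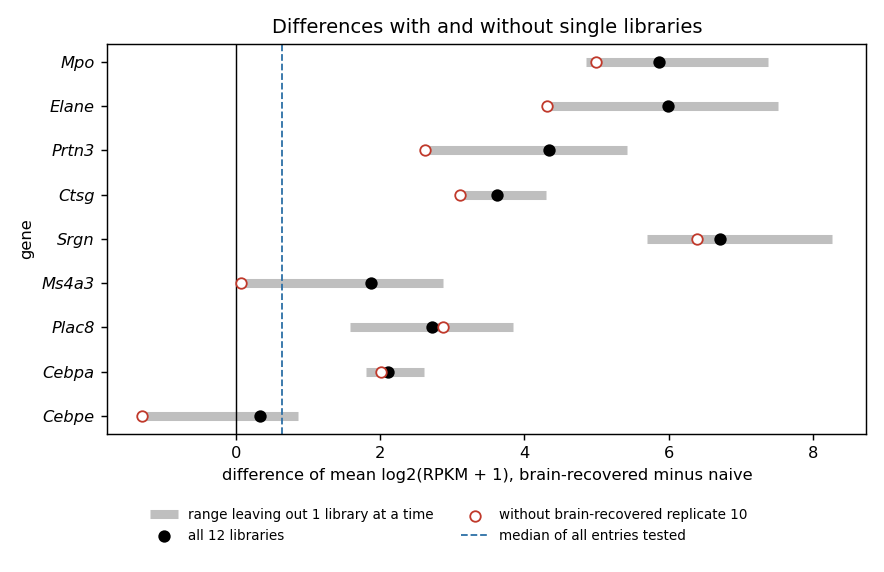
Difference of mean log2(RPKM + 1), brain-recovered minus naive, for each of the 9 genes with all 12 libraries (black), without brain-recovered replicate 10 (open red) and over the range of leaving out 1 library at a time (grey). Srgn, Elane and Mpo stay above 4 in every such set, while Ms4a3 and Cebpe reach 0.075 and -1.30 without replicate 10; the dashed line is the median of all entries tested, 0.64.

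Other genes of the programme were taken from 4 lists chosen from textbook knowledge, with earlier results of these data known. Of these 63 genes, 60 had a usable label and 49 passed the filter. The 60 include genes listed at 0 in every library, whose labels no length could check. In limma over all 17689 entries (adjusted p below 0.05), 1 of the 49 was higher in brain-recovered cells and 0 were lower, beside a background of 0.367% of all entries higher and 0.0% lower. The gene was Fcer1g, the shared signalling chain of Fc receptors, at 7518 RPKM in brain-recovered replicate 4 and 2.97 to 57.6 in the other 5, against 4.95 in naive replicate 9 and 0 in the other naive libraries (a difference of 5.36 with an SE of 1.28, adjusted p = 0.0125 by limma over 6 libraries a group). Its limma adjusted p was 0.323 if brain-recovered replicate 4 was left out, and 0.0642 or 0.0699 if naive replicate 7 or naive replicate 8 was. It was 0.0732 under sample weights, 0.831 under quantile normalization, 0.438 under scaling to read totals, 0.997 with the 4 libraries poorest in entries set aside and 0.820 in libraries 7 to 12, so the call did not hold under any of these. At an unadjusted p below 0.05, limma gave 1075 entries higher and 31 lower.

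Among azurophil granule contents, membrane and processing genes, 21 of 26 were tested, 0 passed the limma threshold in either direction, and the median difference was 1.38. Ctsc, the gene of the peptidase that activates the granule serine proteases, was at 2837 RPKM in brain-recovered replicate 10, 177 in replicate 11 and 0 to 9.93 in the other 4, against 0 to 32.3 in naive libraries. Cd63, a granule membrane protein, was above 0 only in brain-recovered libraries, at 2732 RPKM for replicate 5, 1510.3 for replicate 11, 31.1 for replicate 6 and 1.33 for replicate 4, and failed the filter. Lyz2, the lysozyme gene of macrophages and neutrophils, was at 0 to 46.3 RPKM in brain-recovered and 0 to 17.9 in naive libraries. Calr, Cebpb, Fcgr3 and S100a8 are given outside the order of the lists, chosen after their values were seen. Calr, the chaperone calreticulin on which myeloperoxidase folding depends, reached 13925 and 3674 RPKM in replicates 6 and 10 and 0 to 111 in the other 4, against 0 to 65.1 in naive libraries (a difference of 4.75 with an SE of 1.38, adjusted p = 0.113 by limma).

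Of the 12 myeloid transcription factor genes 10 were tested and 0 passed the limma threshold, with a median difference of 1.33. Cebpb, a C/EBP factor of stimulated granulopoiesis, came closest, at 988, 1244 and 215 RPKM in brain-recovered replicates 6, 10 and 11, 13.7 and 108 in replicates 4 and 5 and 0 in replicate 12, against 0 to 13.1 in naive libraries (a difference of 4.83 with an SE of 1.35, adjusted p = 0.0819 by limma). Gfi1, a repressor needed for neutrophil development, was at 2451 RPKM in replicate 10 and 0 to 31.5 in the other brain-recovered libraries, against 0 to 28.6 in naive libraries. Spi1, the gene of PU.1, was at 0 to 17.4 RPKM in brain-recovered and 0 to 23.9 in naive libraries. Of 9 growth factor and Fc receptor genes 8 were tested with a median of 0.82, and only Fcer1g passed. Fcgr3, an Fc receptor of granulocyte-monocyte progenitors, was at 1099.7 RPKM in replicate 10 and 0 to 27.7 in the other brain-recovered libraries, against 0 to 22.05 in naive libraries. Its difference was 3.16 (adjusted p = 0.570 by limma). The first genes of the list, Csf1r, Csf3r, Csf2ra and Csf2rb, had differences of 0.14, 0.34, 1.08 and 0.55. Csf3r was at 0 to 23.9 RPKM in brain-recovered and 0 to 34.4 in naive libraries. Csf2ra was at 10808 RPKM in replicate 10, against 23.9 to 132 in naive libraries.

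Of 16 secondary granule and later neutrophil genes 10 were tested, 0 passed the limma threshold and the median was 0.94. Ltf, the lactoferrin of secondary granules, was at 0 to 24.6 RPKM in brain-recovered and 0 to 16.3 in naive libraries. Camp, the cathelicidin of the same granules, reached 59.3 RPKM in brain-recovered replicate 10 and 7.69 in naive libraries and failed the filter. Lcn2, an iron-siderophore binding protein, was at 512 RPKM in replicate 10 and 0 to 48.2 in the other brain-recovered libraries, against 0 to 14.6 in naive libraries. S100a8, a calcium-binding protein of neutrophils and monocytes, was at 0 through a median of 83.2 to 9558 RPKM in brain-recovered libraries, against 0 through 64.3 to 6518 RPKM in naive libraries. Its highest values were those of brain-recovered replicate 4 and naive replicate 1, and naive replicates 7, 8 and 9 were at 0 to 3.37 RPKM.

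The 5 genes whose profile over the 12 libraries was most like the mean profile of the 9 were Ccl4, 2700068H02Rik, Mrpl54, A730071L15Rik and Ddx39, with a mean absolute distance of 0.849 to 0.914 log2 units per library between centred profiles. The median over the 8247 entries compared was 2.09, and the 9 genes themselves lay at 1.43 to 2.76 from their own mean. Ccl4, a chemokine gene, was at 413 RPKM in brain-recovered replicate 10, 164 in replicate 6, 0 to 40.9 in the other 4 and 0 to 11.997 in naive libraries. Ddx39, an RNA helicase gene, was at 2630.2 RPKM in replicate 10, 0 to 13.2 in the other brain-recovered libraries and 0 to 4.93 in naive libraries.

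Markers of other cells moved with some of these libraries. The summed RPKM of 7 oligodendrocyte genes was 6179 to 29154 in brain-recovered replicates 4, 5 and 6 and 37.0 to 306 in replicates 10, 11 and 12, against 16.6 to 86.8 in naive libraries. Among the libraries where these genes were high, Elane was at 4.48 RPKM in replicate 4, 848 in replicate 5 and 17187 in replicate 6, and it was highest in replicate 10, where they were at the naive level. In replicate 10 the microglia and macrophage genes C1qa and C1qb were at 19416 and 1764 RPKM, while Tmem119 and Cx3cr1 were listed at 0. F13a1, a monocyte gene, was at 3040.0 there. Of the other monocyte and macrophage genes, Ly6c2 was at 409, Lyz2 at 46.3 and Csf1r at 29.4 RPKM in that library. Adgre1 was at 2.48 and Cd68 at 0.915 there, and Ccr2 was listed at 0. The sum of the 9 microglia genes was 1.56 to 21192 in brain-recovered and 29.9 to 135 in naive libraries. That of the 7 monocyte and macrophage genes was 0.201 to 3528 in brain-recovered and 0 to 87.8 in naive libraries. Most of the 3528, the sum of replicate 10, was F13a1 alone. The 9 natural killer and cytotoxic T cell genes, markers of cells that also make Srgn, summed to 23.3 to 93.4 in brain-recovered and 0 to 123 in naive libraries. The 7 basophil and mast cell genes summed to 27.0 to 261 in brain-recovered and 3.10 to 73.0 in naive libraries. The 9 genes of the removed lineages summed to 0.116 to 1379.6 in brain-recovered and 0 to 155 in naive libraries. Single genes made most of the highest of these sums. Hba-a1 was at 1317 RPKM in brain-recovered replicate 6, and Ptprc at 868 in replicate 5, where the sum was 971. Ptprc also stands in the stem and progenitor list and alone made the sum of replicate 12. For 7 astrocyte genes the sum was 5.25 to 5288 in brain-recovered and 25.0 to 92.3 in naive libraries. For 7 neuron genes it was 81.3 to 411 in brain-recovered and 0 to 154 in naive libraries, and for 6 endothelial genes 1.90 to 14402 in brain-recovered and 50.8 to 133 in naive libraries. The endothelial sum was 14402 and 6497 in brain-recovered replicates 6 and 10, and 1.90 to 95.4 in the other 4. The summed RPKM of the granule genes was also highest in replicates 6 and 10, while their share of reads was higher in replicate 11 than in replicate 6. Most of both endothelial sums was Ly6c1 alone, at 13010 and 6464 RPKM. Cdh5 was at 1309 RPKM in replicate 6. In replicate 10 Cldn5, Cdh5 and Slco1c1 were listed at 0, Flt1 was at 2.78 RPKM and Pecam1 at 30.1. The rise in replicate 10 is therefore that of Ly6c1 and not of the endothelial list. Gfap, Ncr1 and P2ry12, defining markers of astrocytes, natural killer cells and microglia, were listed at 0 in all 12 libraries. A row without a value above 0 implies no length, so these labels could not be checked. The part of these cells in the granule gene values was not tested.

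**Figure D5:**
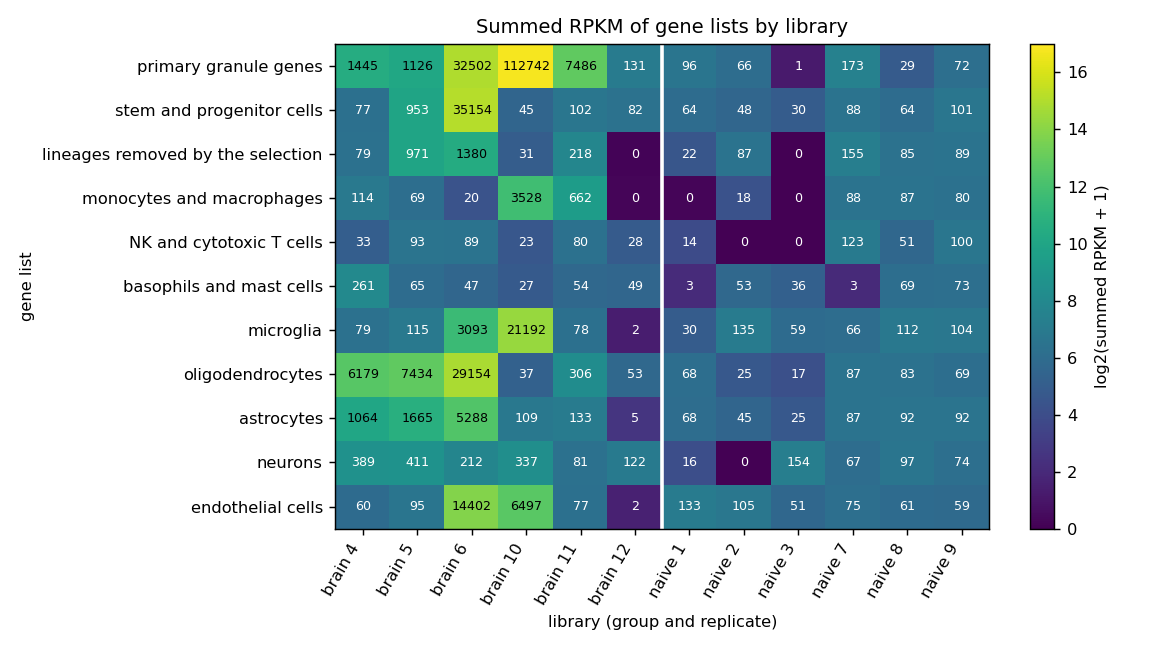
Summed RPKM of the 9 primary granule genes (top row) and of the usable genes of 10 marker lists in each library, brain-recovered on the left and naive on the right, coloured by log2(sum + 1). By summed RPKM the granule genes are highest in brain-recovered replicates 10 and 6, oligodendrocyte genes in replicates 4, 5 and 6, and the microglia list in replicate 10 (21192). By share of reads the granule genes are higher in replicate 11 (0.496%) than in replicate 6 (0.327%).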

How the data were processed

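RNA was measured in 12 libraries. Per the labels' protocols, cDNA was made with SMARTer Ultra Low Input v3, tagged with Nextera XT and sequenced on a HiSeq instrument; the submitters' processing notes name Trimmomatic 0.32 and GRCm38. As for aligner, counter and annotation, not given in the sources used here. Values in the single table deposited by the authors were treated as RPKM: its header names no unit, but in 24387 of 24388 entries above 0 each value is a whole number of reads (tolerance 0.004 of a read plus 1e-07 per read) over a common length, times a constant of its library. The implied length equalled the GENCODE M21 exon length in 47.3% of entries with at least 4 values above 0. A label was set aside where the implied length exceeded 1.1 times the annotated one, or in runs of at least 15 mismatches in alphabetical order. These rules were set after the data were seen. Rows more than 10% shorter than the labelled gene kept their label, which is less sure. Among named genes these were Ms4a3, Kit, Cd34, Ly6a, Cd63, Ltf, Camp, Lcn2, S100a8, F13a1, Ly6c2, Csf1r, Csf2ra, Csf2rb, Cx3cr1, Ptprc, Ly6c1, Flt1, Pecam1 and Slco1c1.

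Differences were tested by limma 3.58.1 (R 4.3.3; eBayes with trend, no covariates) on log2(RPKM + 1). Entries needed at least 1 RPKM in 6 or more libraries, and p-values were adjusted by Benjamini-Hochberg. The prior degrees of freedom were infinite, so SEs come wholly from the abundance trend of the variance. Precision rests on the reads behind a value, and without molecular identifiers PCR copies do not count as separate molecules. Members and lists were chosen with earlier results of these data known. The text names all members, list genes past the threshold and up to 4 others per list, the 5 most like profiles and the neighbours of Elane and Prtn3; Calr, Cebpb, Fcgr3, S100a8 and single marker genes were named after their values were seen. Alternatives were the pseudocount, filters, scalings, sample weights and subsets of libraries. Python 3.11.15 with numpy 2.4.6, pandas 2.3.3 and matplotlib 3.10.9 did the rest.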

Additional observations from a re-analysis of the deposited data

Results flagged for a closer look

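Of 18 sets of 6 libraries (9 genes in 2 groups), 5 held a library far from the nearest of the others relative to the range of the set (Dixon's criterion); chance gives such a library in about 1 in 20 sets of normally distributed values. RPKM values are strongly skewed and these genes were chosen for high values, so the 5 sets are not a comparison with chance. Brain-recovered replicate 10 was that library in 4 genes: Elane (65623 RPKM, next 17187), Prtn3 (23739.6, next 172), Ms4a3 (15929, next 267) and Cebpe (1821, next 6.70). These 4 share 1 library and are not independent of each other. In the naive group Srgn stood at 12.2 RPKM in replicate 7, next 2.40.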

How the results depend on the processing

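The 65 entries called over the whole table became 33 with a filter of at least 10, 4 after scaling to library read totals, 3 without the 4 libraries under 10000 entries, 0 after quantile normalization (limma, with 557 higher and 497 lower by unadjusted p), 0 in libraries 7 to 12 (limma, 181 and 825) and 6011 in libraries 1 to 6, and ran from 40 (without naive replicate 8) to 245 (without brain-recovered replicate 12) when 1 library was left out; it was 43 without brain-recovered replicate 11 or naive replicate 9 and 42 without naive replicate 1. The 1 pathway gene called became 0 with a filter of at least 10, quantile normalization, read totals, sample weights, without those 4 libraries and in libraries 7 to 12, and 15 in libraries 1 to 6, and ran from 0 (without brain-recovered replicate 4 or naive replicate 7 or 8) to 5 (without brain-recovered replicate 12) with 1 library left out, and was 2 without naive replicate 1. The median of all entries was 0.64, and -0.06 with quantile normalization, -0.32 with read totals, 2.42 in libraries 1 to 6 and -1.09 in libraries 7 to 12; the median of the granule genes was 2.61 with quantile normalization and 2.79 with read totals. Over all alternatives tried, that median ran from 2.61 to 5.20 (pseudocount 0.1). Of 174 values of single granule genes under alternatives, 7 were negative, 6 of Cebpe and 1 of Ms4a3; these do not count Cebpe in libraries 1 to 6, where it was not among the entries tested and its difference was -0.87. The cause was not tested. Low values rest on few reads, such as those of Cebpa, which had at most 39 reads in brain-recovered and 44 in naive libraries. No paired analysis was possible because the groups share no replicate numbers.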
